A study of Homo sapiens with 10 samples.

Results

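The 10 genes described here encode the transcription factors at the centre of the cardiac programme: the homeodomain factor NKX2-5, the T-box factors TBX5, TBX20, TBX2 and TBX3, the basic helix-loop-helix factors HAND1 and HAND2, the Iroquois factor IRX4, the Notch-linked repressor HEY2 and the LIM homeodomain factor ISL1. They were chosen by symbol, and all 10 were found among the 78932 gene identifiers of the count table and passed the filter on low counts that left 21033 genes for testing. The cells were cardiomyocytes that had been differentiated from the established line H1 of human embryonic stem cells. Beating cells were transfected at day 9 of differentiation with a GapmeR at 50 nM, either one directed at CLIPPER RNA (knockdown, 5 libraries) or a control GapmeR (control, 5 libraries) and collected 48 hours later. A GapmeR is an antisense oligonucleotide that directs RNase H to the RNA it pairs with. Both groups carried the same cell line, transfection reagent and GapmeR dose, no untransfected group was analysed here, and the genotype label is GapmeR Knockdown or WT. Nothing in the labels says that replicates came from separate differentiations, so p-values measure the spread between these libraries, which may be technical.

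In the embryonic heart these factors act on shared enhancers. TBX5, TBX20 and NKX2-5 bind with GATA factors and switch on genes of the working chambers, while TBX2 and TBX3 occupy T-box sites as repressors and keep the atrioventricular canal and the conduction system from taking a chamber identity. HAND1 and HAND2 pair with E proteins and pattern the left and right ventricle, IRX4 and HEY2 mark ventricular muscle, and ISL1 marks progenitors of the second heart field and, later, the sinoatrial node.

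Libraries held 32879710 to 42073139 gene counts in the knockdown group and 33516136 to 45052044 in the control group, so that 1 count stood for 0.0212 to 0.0315 CPM (counts scaled to a common library size) after scaling by the trimmed mean of M-values (TMM), the scale of all CPM given here. Genes of the mitochondrial genome took 10.9% to 17.5% of the counts in knockdown and 10.03% to 12.2% in control libraries, with 11.5% and 10.9% in knockdown replicates 1 and 2 and 15.96% to 17.5% in the other 3. The TMM factors were 1.16 and 1.12 in knockdown replicates 1 and 2, 0.899 to 0.966 in the other 3 and 0.943 to 1.04 in control libraries. All 12 cardiomyocyte markers, TNNT2 among them, were tested and their summed level was 16582 to 29766 CPM in knockdown and 44294 to 67521 CPM in control libraries, with 11 of 12 lower. The target RNA has no symbol in the annotation used and was not analysed here.

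Of the 10 factors, 6 were lower and 3 higher in the knockdown at an adjusted p below 0.05 in edgeR's quasi-likelihood test, and HAND1 did not pass. HEY2, HAND2, TBX20, TBX5, IRX4 and NKX2-5 fell, and TBX3, TBX2 and ISL1 rose. Among all 21033 tested genes 79.7% passed the same threshold, 40.1% higher and 39.6% lower, so the share of 9 in 10 factors is near what the whole table showed. The median log2 fold change of the 10 was -0.49, against 0.0056 over all tested genes. With upper-quartile scaling, which moved the median of all genes to 0.20, 4 of the factors were higher and 5 lower. In 7 of the 10 factors no knockdown library overlapped the control range, as in 67.5% of all tested genes, and 2 of the 10 changed at least 2-fold, against 48.6% of all tested genes. These are bulk libraries, in which fewer cells of a type and less RNA per cell cannot be told apart.

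**Figure D1:**
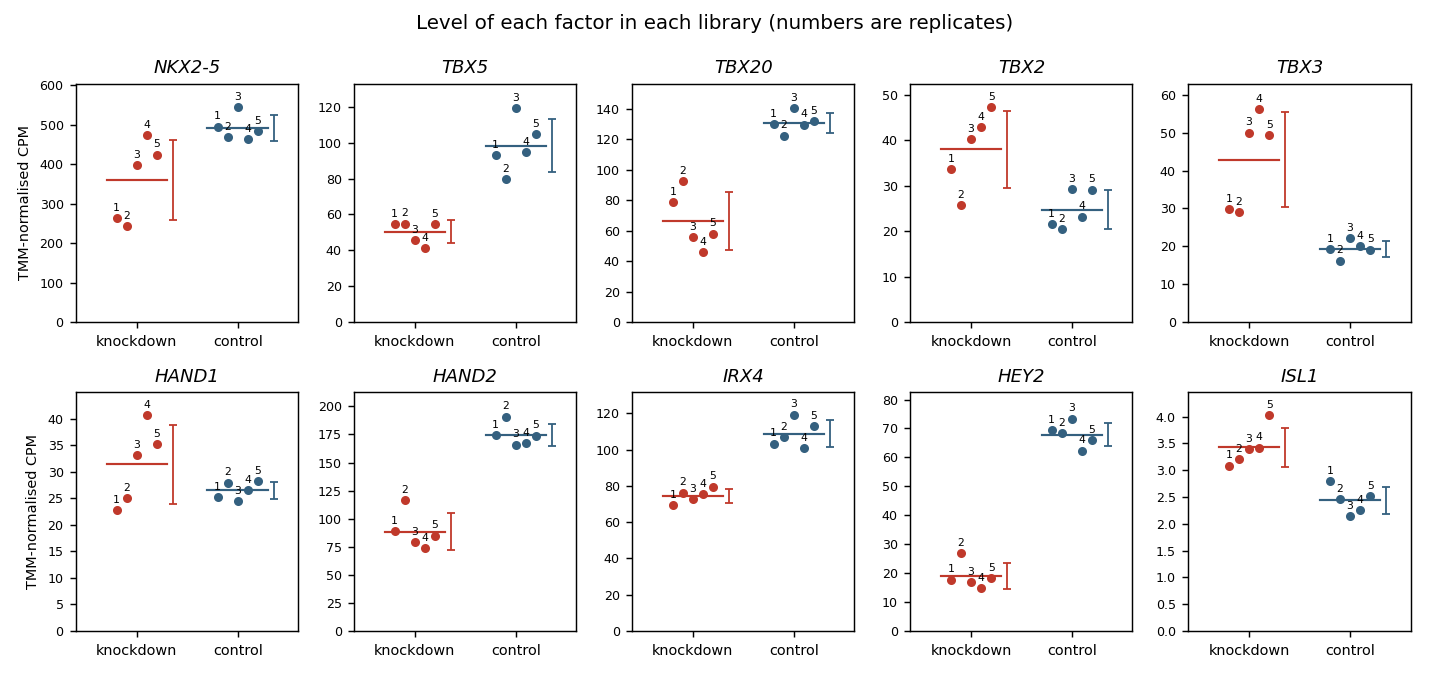
Level of each factor in every library, as TMM-normalised CPM on axes that start at 0, with knockdown (red) left of control (blue), replicate numbers beside the points, a line at the mean and a bar of 1 SD (n = 5 each). HEY2, HAND2, TBX20, TBX5 and IRX4 lie wholly below the control range, TBX3 and ISL1 wholly above it, and knockdown replicates 1 and 2 stand apart from replicates 3 to 5 for NKX2-5, TBX20, TBX3 and HAND1.

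The T-box activators TBX5 and TBX20 fell by nearly the same amount. TBX5, which is required for atrial and left ventricular development and for the conduction system (ENSG00000089225, chr12:114353911-114408442, minus strand, GRCh38, a gene of 54.5 kb with 9 exons in its canonical transcript), had 54.6, 54.9, 45.9, 41.3 and 54.8 CPM in knockdown replicates 1 to 5, against 93.1, 79.7, 119, 94.6 and 105 CPM in control replicates 1 to 5. Every knockdown library lay below every control. The log2 fold change was -0.97 ± 0.122 (SE), which is 1.95-fold lower (adjusted p = 1.2e-05). TBX5-AS1, a long non-coding RNA read from the opposite strand, went the other way: it had 50.1, 38.2, 60.3, 64.3 and 63.3 CPM in the knockdown libraries and 15.5, 14.5, 18.2, 15.5 and 18.02 CPM in the controls, a log2 fold change of 1.76 ± 0.143 (adjusted p = 4.0e-07). The groups of that transcript did not overlap either. Its annotated start lies 119 bases upstream of a RefSeq start of TBX5 and inside the longer annotated span of TBX5, with 312 bases of shared exon sequence, or 7.02% of the TBX5 exons. The strand setting of the read counting is not given in the sources used here, so counts from the shared stretch are uncertain. The window from 250 bases before to 50 after that start of TBX5 (RefSeq, GRCh38.p14, chr12:114407963-114408262, minus strand, read 5′ to 3′ along TBX5) is shown because it holds both starts. Capitals mark the stretch from the annotated start of TBX5-AS1 to the start of TBX5.
TBX5: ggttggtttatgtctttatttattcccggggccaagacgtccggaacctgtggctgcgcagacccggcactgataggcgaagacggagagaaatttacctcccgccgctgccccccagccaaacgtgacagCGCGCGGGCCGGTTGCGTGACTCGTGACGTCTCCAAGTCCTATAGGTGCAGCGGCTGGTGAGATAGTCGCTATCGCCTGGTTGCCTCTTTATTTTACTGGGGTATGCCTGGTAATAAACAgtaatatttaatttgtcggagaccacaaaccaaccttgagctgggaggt

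TBX20, which sustains the contractile programme and represses Tbx2 in the chambers of the mouse heart (ENSG00000164532, chr7:35202430-35254100, minus strand, 51.7 kb, 8 exons), had 78.8, 92.7, 55.5, 45.8 and 58.1 CPM in knockdown replicates 1 to 5, against 129.9, 122, 140.2, 129.6 and 132 CPM in the controls. The groups did not overlap, and knockdown replicates 1 and 2 were the highest of their group. Its log2 fold change was -0.98 ± 0.165 (SE, adjusted p = 0.00014), and -1.31 with knockdown replicates 1 and 2 both left out. Non-coding genes annotated on the same strand just beyond its 3′ end changed by a like amount. ENSG00000288947, 59 bases downstream, was at 79.3 ± 21.1 CPM in knockdown and 159 ± 7.85 CPM in control libraries (SD, n = 5), with a log2 fold change of -1.0 ± 0.154. The values were -1.0 ± 0.172 for ENSG00000289089, 3.21 kb downstream, and -1.03 ± 0.170 for ENSG00000291133, 16.2 kb downstream. The groups of all 3 were apart, and whether their reads belong to transcripts of TBX20 was not tested.

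The T-box repressors TBX2 and TBX3 rose. TBX3, which holds the pacemaker and conduction myocardium apart from the chambers (ENSG00000135111, chr12:114670255-114684175, minus strand, 13.9 kb, 7 exons), had 29.8, 29.0, 50.0, 56.3 and 49.3 CPM in knockdown replicates 1 to 5, against 19.4, 16.2, 22.1, 20.1 and 19.1 CPM in the controls. All knockdown libraries were above all controls, with replicates 3 to 5 the highest. It rose by 1.14 ± 0.186 (SE) on the log2 scale, or 2.21-fold (adjusted p = 0.00010). TBX2, its close paralogue in the atrioventricular canal and outflow tract (ENSG00000121068, chr17:61399843-61409466, plus strand, 9.62 kb, 7 exons), had 33.7, 25.7, 40.2, 42.9 and 47.2 CPM in knockdown and 21.5, 20.5, 29.3, 23.2 and 29.1 CPM in control libraries. Here the groups overlapped, because knockdown replicate 2 lay within the control range. TBX2 rose by 0.62 ± 0.165 on the log2 scale, or 1.53-fold (adjusted p = 0.0041).

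Non-coding RNAs around TBX2 rose more than TBX2 itself. TBX2-AS1, whose span covers the whole gene on the opposite strand without sharing exon bases with it, had 10.5, 9.03, 12.5, 13.0 and 14.3 CPM in knockdown libraries and 2.21, 2.41, 2.44, 2.47 and 3.40 CPM in controls, a log2 fold change of 2.19 ± 0.160 (SE, adjusted p = 1.8e-07). LINC02875, 2.29 kb downstream of TBX2 on its strand, had 1.48 ± 0.430 CPM in knockdown and 0.234 ± 0.101 CPM in control libraries (SD, n = 5) and a log2 fold change of 2.62 ± 0.308. ENSG00000289926, 1298 bases upstream on the same strand, rose by 1.26 ± 0.220 on the log2 scale. The groups were apart for all 3. The coding neighbour BCAS3, which ends 7005 bases upstream and spans 715 kb, fell 6.5-fold, so the genes of this locus did not move together. No gene within 100 kb of TBX3 had enough counts to be tested, its antisense partner TBX3-AS1 included.

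The HAND paralogues differed. HAND2, which is needed for the right ventricle and the outflow tract in mice (ENSG00000164107, chr4:173524969-173530229, minus strand, 5.26 kb, 2 exons), had 88.6, 116, 79.0, 73.6 and 85.0 CPM in knockdown replicates 1 to 5, against 174, 191, 166, 168 and 174 CPM in the controls. All knockdown libraries were below all controls, replicate 2 the least. The log2 fold change was -0.98 ± 0.119 (SE), or 1.97-fold lower (adjusted p = 9.0e-06). HAND1, the left ventricular paralogue (ENSG00000113196, chr5:154474972-154478227, minus strand, 3.26 kb, 2 exons), had 22.7, 25.0, 33.2, 40.7 and 35.2 CPM in knockdown and 25.2, 27.9, 24.5, 26.6 and 28.2 CPM in control libraries. Knockdown replicates 3 to 5 were above all controls, replicate 1 was below them and replicate 2 lay within their range. Counts over library totals alone put replicate 1 within the control range as well. The log2 fold change of 0.24 ± 0.146 did not pass (adjusted p = 0.14). It passed without knockdown replicate 1 (0.35, adjusted p = 0.027), without knockdown replicate 2 (0.30, adjusted p = 0.045), without both (0.45, adjusted p = 0.00012) and with upper-quartile scaling (0.45, adjusted p = 0.018). HAND2-AS1, a non-coding RNA whose annotated start lies inside HAND2 on the opposite strand, fell with HAND2 by less. It had 76.1, 97.4, 72.5, 68.2 and 70.7 CPM in knockdown and 120, 123, 110, 122 and 115 CPM in control libraries, a log2 fold change of -0.62 ± 0.102. The exons of this pair share 867 bases, 24.1% of the HAND2 exons, which leaves the division of reads between them uncertain.

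Of the 10 factors, 7 had promoter windows in the RefSeq table (10 windows of 300 bases, from 250 before to 50 after a start), and that of HAND2 is shown because it was the member window with letters of more than 1 cardiac motif. Both strands were searched for AGATAA, the letters that GATA factors favour, GGTGTG, those of T-box factors, AAGTG, those of NKX factors, and CATCTG, those of HAND dimers, and the matches in it do not overlap. Capitals mark AAGTG at base 9 and AGATAA at base 79, both on the opposite strand (GRCh38.p14, chr4:173530180-173530479, minus strand, read along HAND2). AAGTG stood in 43.1% and AGATAA in 10.3% of all 35114 windows, GGTGTG in 16.8% and CATCTG in 14.7%. Among the 10 member windows AGATAA was in those of HAND2 and ISL1, AAGTG in that of HAND2, CATCTG in 1 of IRX4 and GGTGTG in none. These are matches of letters in a short window and say nothing about binding.
HAND2: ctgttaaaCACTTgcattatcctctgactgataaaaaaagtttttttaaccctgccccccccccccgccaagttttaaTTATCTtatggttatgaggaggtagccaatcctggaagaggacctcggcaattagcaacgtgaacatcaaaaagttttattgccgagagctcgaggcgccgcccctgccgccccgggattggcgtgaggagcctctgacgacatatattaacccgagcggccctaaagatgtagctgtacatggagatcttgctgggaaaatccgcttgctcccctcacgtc

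NKX2-5, the homeodomain factor of cardiac specification and conduction system maintenance, was the most abundant of the 10 per kilobase of exon (ENSG00000183072, chr5:173232109-173235311, minus strand, 3.20 kb, 2 exons). It had 263, 243, 399, 474 and 424 CPM in knockdown replicates 1 to 5, against 495, 469, 544, 463 and 484 CPM in the controls. On the TMM scale knockdown replicate 4 lay within the control range, and replicates 1 and 2 were the lowest. Counts over library totals alone put replicate 4 below every control, so this overlap depends on the scaling. The log2 fold change was -0.45 ± 0.176 (SE), or 1.36-fold lower (adjusted p = 0.033). The call was lost with upper-quartile scaling (-0.24, adjusted p = 0.26), with only genes of a mean of at least 1 CPM (-0.39, adjusted p = 0.065), without knockdown replicate 1 (-0.34, adjusted p = 0.082) and without control replicate 3 (-0.43, adjusted p = 0.057). With knockdown replicates 1 and 2 both left out it was -0.20 (adjusted p = 0.032). The non-coding gene ENSG00000289493, 7.80 kb upstream on the same strand, had 17.9, 32.6, 13.9, 11.5 and 16.3 CPM in knockdown and 49.4, 69.5, 59.4, 50.3 and 53.4 CPM in control libraries (log2 fold change -1.61 ± 0.241, adjusted p = 5.2e-05). In that gene replicate 2 was the highest knockdown library, where it was the lowest for NKX2-5.

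ISL1, the progenitor and pacemaker factor (ENSG00000016082, chr5:51383448-51394730, plus strand, 11.3 kb, 6 exons), was the least abundant and rested on 657 counts in all knockdown and 471 in all control libraries. It had 3.08, 3.21, 3.40, 3.42 and 4.03 CPM in knockdown and 2.80, 2.46, 2.15, 2.26 and 2.51 CPM in control libraries. The ranges were apart by a narrow gap. The log2 fold change was 0.49 ± 0.130 (SE), or 1.40-fold (adjusted p = 0.0039). ISL1-DT, the divergent non-coding RNA that starts 116 bases from ISL1 on the other strand, rose with it: it had 2.18, 2.00, 2.45, 3.06 and 3.08 CPM in knockdown and 1.09, 0.951, 1.52, 1.64 and 1.85 CPM in control libraries, a log2 fold change of 0.85 ± 0.212 (adjusted p = 0.0026). The window that holds both starts is shown (RefSeq, GRCh38.p14, chr5:51383198-51383497, plus strand, read along ISL1), with capitals from the annotated start of ISL1-DT to that of ISL1.
ISL1: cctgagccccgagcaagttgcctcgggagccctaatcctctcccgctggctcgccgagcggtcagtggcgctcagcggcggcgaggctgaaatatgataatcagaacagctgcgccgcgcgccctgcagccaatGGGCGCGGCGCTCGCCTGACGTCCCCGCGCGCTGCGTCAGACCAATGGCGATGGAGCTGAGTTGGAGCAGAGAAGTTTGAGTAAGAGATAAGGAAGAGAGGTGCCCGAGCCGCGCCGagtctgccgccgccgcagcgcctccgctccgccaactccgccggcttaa

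The ventricular factors IRX4 and HEY2 both fell, and HEY2 changed most of the 10. HEY2, a repressor that maintains the compact ventricular wall (ENSG00000135547, chr6:125747664-125761269, plus strand, 13.6 kb, 5 exons), had 17.8, 26.9, 17.0, 14.9 and 18.3 CPM in knockdown replicates 1 to 5, against 69.5, 68.3, 73.4, 62.4 and 65.9 CPM in the controls. The groups were far apart, and replicate 2 stood above the other knockdown libraries. HEY2 had a log2 fold change of -1.84 ± 0.142 (SE), or 3.58-fold lower (adjusted p = 2.8e-07). IRX4, the Iroquois factor of ventricular muscle (ENSG00000113430, chr5:1877413-1887236, minus strand, 9.82 kb, 5 exons), had 69.4, 76.4, 72.7, 75.3 and 79.7 CPM in knockdown and 103, 107, 119, 101 and 113 CPM in control libraries. Its fall was smaller but even across libraries, with a coefficient of variation of 5.19% in the knockdown and 6.85% in the control group. Its log2 fold change was -0.54 ± 0.0773, or 1.46-fold lower (adjusted p = 3.3e-05). HEY2-AS1 had 33 counts in all knockdown and 187 in all control libraries and a log2 fold change of -2.53 ± 0.430, and IRX4-AS1 did not pass (-0.07 ± 0.150, adjusted p = 0.67).

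Levels between genes were compared per kilobase of annotated exon. In knockdown libraries the order was NKX2-5 (176 ± 49.7 CPM per kb), TBX20 (36.2 ± 10.4), IRX4 (25.1 ± 1.303), HAND2 (24.6 ± 4.61), HAND1 (18.4 ± 4.38), TBX5 (11.3 ± 1.43), TBX3 (7.20 ± 2.12), HEY2 (7.05 ± 1.73), TBX2 (6.24 ± 1.38) and ISL1 (1.22 ± 0.129, SD, n = 5 each). In control libraries it was NKX2-5 (239.8 ± 15.8 CPM per kb), TBX20 (71.5 ± 3.48), HAND2 (48.5 ± 2.74), IRX4 (36.6 ± 2.50), HEY2 (25.3 ± 1.53), TBX5 (22.1 ± 3.31), HAND1 (15.6 ± 0.952), TBX2 (4.07 ± 0.693), TBX3 (3.25 ± 0.353) and ISL1 (0.864 ± 0.0892). HEY2 had rank 8 of 10 in the knockdown, between TBX3 and TBX2, and rank 5 in the controls. Ranges of neighbours in the order overlapped in the knockdown group for all pairs but NKX2-5 and TBX20, HAND1 and TBX5, and TBX2 and ISL1. In the control group they overlapped for HEY2 and TBX5 and for TBX2 and TBX3. The exon length pools all annotated transcripts, so a level of a gene with unused exons is understated.

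Ratios of counts within a library do not depend on the scaling between libraries. The ratio of TBX5 to TBX3, an activator and a repressor of chamber genes, was 1.83, 1.89, 0.917, 0.733 and 1.11 in knockdown replicates 1 to 5, against 4.81, 4.91, 5.40, 4.70 and 5.48 in the controls. The mean log2 ratio differed by -2.06, and the groups did not overlap. The ratio of HAND1 to HAND2 was 0.256, 0.215, 0.420, 0.553 and 0.414 in the knockdown and 0.145, 0.146, 0.148, 0.158 and 0.162 in the control libraries. The ratio of IRX4 to HEY2 was 2.84 to 5.06 in knockdown and 1.49 to 1.71 in control libraries, and that of NKX2-5 to ISL1 was 75.9 to 139 in knockdown and 177 to 254 in control libraries. In these 4 ratios the groups were apart. TBX5 to TBX20 (0.592 to 0.943 in knockdown and 0.651 to 0.850 in control libraries) and TBX2 to TBX3 (0.762 to 1.13 in knockdown and 1.11 to 1.52 in control libraries) overlapped. The pairs were set by role, with results of these data known, and the ratios are given without a test.

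**Figure D2:**
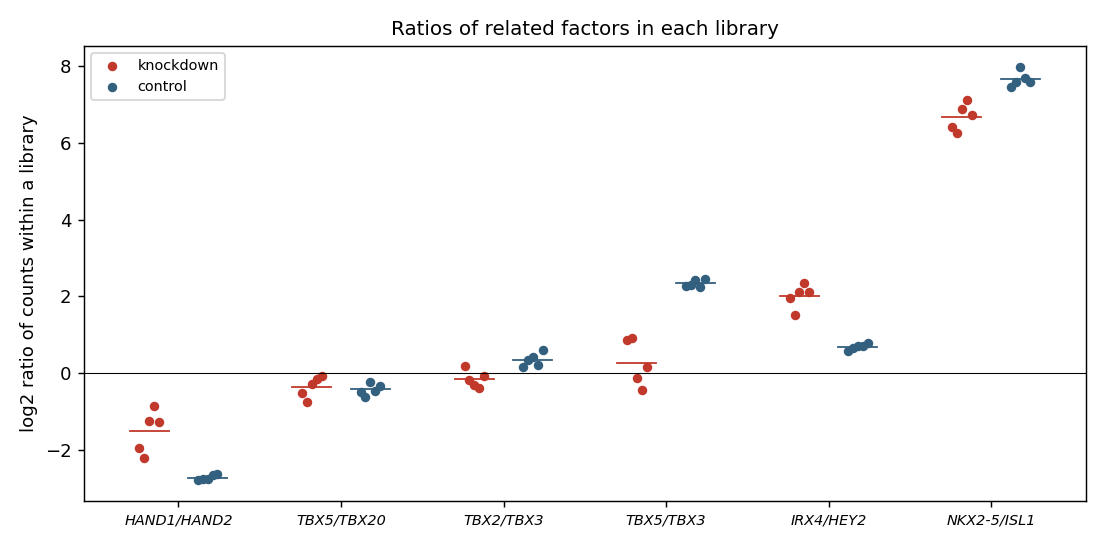
Log2 ratio of the counts of related factors within each library, knockdown (red) left of control (blue), with a line at the mean of 5 libraries. The control libraries lie close together, and the TBX5 to TBX3 ratio shows the widest gap, with a mean of 0.27 in knockdown and 2.34 in control libraries.

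The knockdown libraries were graded. On the log2 scale, replicate 2 was the knockdown library nearest to the control mean for 7 of the 10 factors and replicate 4 the furthest from it for 6. The same held over all tested genes on the first principal component, the axis of most variance (85.2%). There replicate 2 was at -49.5 and replicate 4 at -140, against 102 to 108 in control libraries. NKX2-5 ran against this order, with deviations of -1.01 in replicate 2 and -0.05 in replicate 4. The deviations of TBX20 were -0.50 and -1.51 in these replicates, those of TBX3 0.59 and 1.54, and those of HEY2 -1.33 and -2.18. HAND1 was at -0.08 and 0.62. The share of mitochondrial genome counts and the TMM factors followed the same split of replicates 1 and 2 from 3 to 5, as given above. Their part in these values was not tested. With mitochondrial genome genes removed, 3 factors were higher and 6 lower, as in the whole table. With knockdown replicates 1 and 2 both left out, 4 were higher and 6 lower.

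Gene span, the length of the annotated gene with its introns, moved with the fold changes of the whole table, so each factor stands beside coding genes of its span class. Of 2234 tested coding genes of 3 to 10 kb, 64.4% were higher and 15.2% lower (median of log2 fold changes 0.71). In this class NKX2-5, HAND2 and IRX4 fell, TBX2 rose and HAND1 did not pass. The log2 fold changes of TBX2 (0.62) and HAND1 (0.24) were also below this median. Of 4068 coding genes of 10 to 30 kb, 48.9% were higher and 29.1% lower (median 0.27), and here TBX3 and ISL1 rose while HEY2 fell. Of 4783 coding genes of 30 to 100 kb, 23.2% were higher and 57.0% lower (median -0.48), and TBX5 and TBX20 fell. The median span of the 10 factors was 10.6 kb, against 33.9 kb for tested coding genes. The 4 genes under 30 kb that fell, HEY2, HAND2, IRX4 and NKX2-5, thus went against the median of their class. The part of gene span in the values of single factors was not tested.

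**Figure D3:**
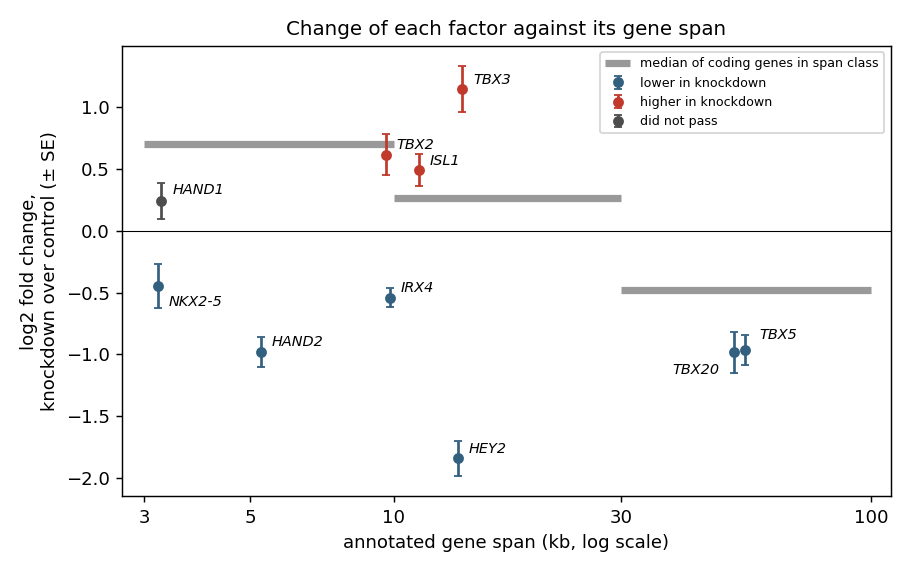
Log2 fold change of each factor, knockdown over control with its SE, against annotated gene span on a log axis; grey bars are the median of all tested coding genes in 3 span classes. HEY2, HAND2, IRX4 and NKX2-5 lie below the bar of their class, as do TBX2 and HAND1, and TBX5 and TBX20 lie below a bar at -0.48. TBX3 and ISL1 lie above the bar of their class.

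Within 100 kb of the factors, 30 other genes were tested. Of all tested genes 40.1% were higher and 39.6% lower, while of these 30 neighbours 10 were higher, 15 lower and 5 did not pass. Of 20 long non-coding genes among them 7 were higher and 9 lower, against 53.8% higher and 22.3% lower among all 4367 tested long non-coding genes. The only tested neighbour of ISL1 and both of HEY2 went the way of the factor, as did the 3 that passed near TBX20, while the neighbours of HAND1, NKX2-5, IRX4, HAND2 and TBX2 moved both ways. TBX5-AS1, the only neighbour of TBX5 that passed, went against the factor. Near HAND1, the corepressor gene SAP30L rose (log2 fold change 1.06 ± 0.115) while GALNT10 (-2.21 ± 0.137), which starts a mucin-type sugar chain, and SAP30L-AS1 (-1.41 ± 0.197) fell. Near NKX2-5, STC2, the secreted stanniocalcin 2 (-0.94 ± 0.108), BNIP1 (-0.66 ± 0.152) and the pseudogene RPL7AP33 (-0.79 ± 0.277) fell and CREBRF rose by 0.30 ± 0.107. The CREBRF call was lost without control replicate 1 (adjusted p = 0.075), without control replicate 2 (0.079), without knockdown replicates 1 and 2 together (0.088), with the replicate block (0.053), with library totals (0.055) and with no filter (0.080), and that of RPL7AP33 with upper-quartile scaling (0.082) and without knockdown replicates 1 and 2 together (0.055). Near IRX4 the mitochondrial ribosomal protein gene MRPL36 rose (1.10 ± 0.103), ENSG00000248994 fell (-1.29 ± 0.181) and the complex I gene NDUFS6 was at -0.03 ± 0.0994. Near HAND2, ENSG00000288776 rose (0.74 ± 0.174) as did ENSG00000286039 (0.32 ± 0.105, a call lost with no filter, adjusted p = 0.094, and without control replicate 3, 4 or 5, adjusted p = 0.055 to 0.058), and ENSG00000261646 fell (-1.09 ± 0.340). NCOA7, 19.9 kb from HEY2, fell (-0.76 ± 0.127). ENSG00000289335 and ENSG00000287249 near TBX20 and ENSG00000289101 near TBX5 did not pass, with log2 fold changes of -0.26, 0.41 and 0.58, the last of which passed without control replicate 1 (0.73, adjusted p = 0.049) and with upper-quartile scaling (0.77, adjusted p = 0.028).

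**Figure D4:**
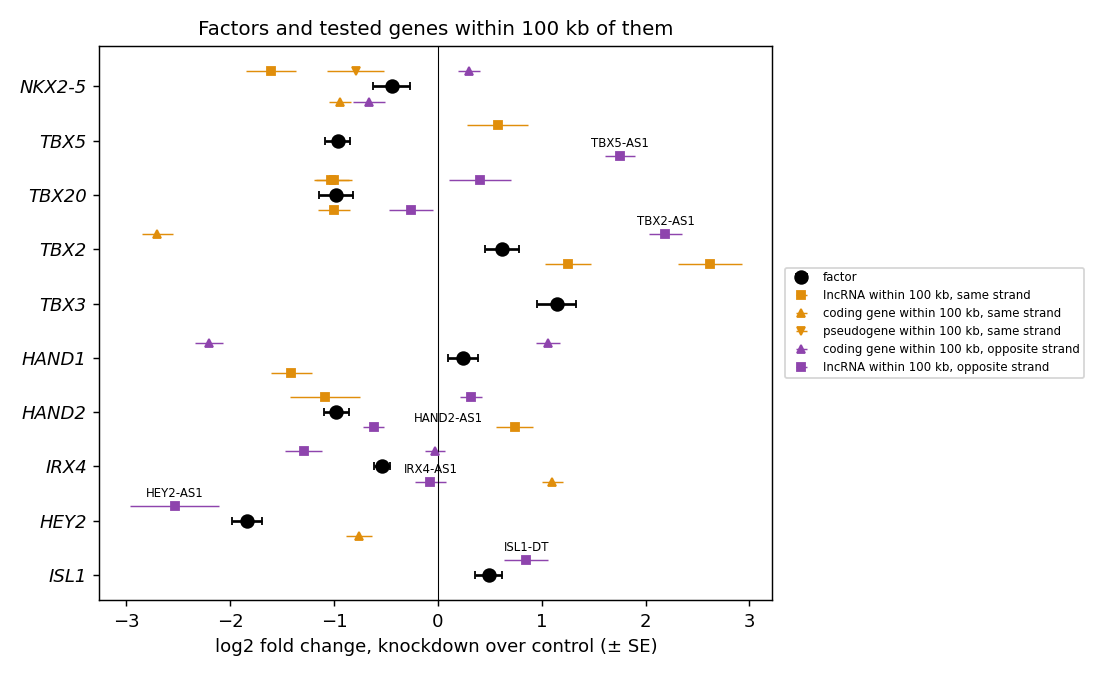
Log2 fold change with SE of each factor (black) and of the 30 tested genes within 100 kb of it, purple on the opposite and orange on the same strand, squares for long non-coding and triangles for other genes. TBX5-AS1 lies at 1.76 where TBX5 lies at -0.97, while TBX2-AS1, HEY2-AS1, HAND2-AS1 and ISL1-DT lie on the side of their partners.

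Relatives of the factors were also measured. Of 6 tested HES and HEY genes other than HEY2, a family of basic helix-loop-helix repressors of which several respond to Notch, 5 rose and none fell (median of log2 fold changes 1.53). The 5 that rose span 1.21 to 5.49 kb and HEYL, which did not pass, spans 16.2 kb. HES1, HES4 and HES6, which rose, span under 3 kb, a class for which no share is given here. Coding genes of 3 to 10 kb, the class of HES7 and HEY1, were mostly higher, as given above. Of all tested genes 40.1% were higher, and the part of gene span was not tested. HES1 was at 106 ± 52.3 CPM in knockdown and 14.2 ± 2.77 CPM in control libraries (SD, n = 5, log2 fold change 2.90 ± 0.341), and HES6 at 21.9 ± 11.7 CPM in knockdown and 2.44 ± 0.592 CPM in control libraries (3.16 ± 0.383). HEY1, the atrial paralogue of HEY2 and chosen after its values were seen, was at 64.0 ± 10.1 CPM in knockdown and 35.5 ± 3.00 CPM in control libraries, a log2 fold change of 0.85 ± 0.116, opposite in sign to HEY2. Of 13 other T-box genes 5 were tested, and 2 rose (TBX10 by 1.18, TBR1 by 2.82) and 2 fell (TBX18, a sinus node and epicardial factor, with -0.91, and TBX19 with -2.08). NKX2-6, a close relative of NKX2-5 expressed in pharyngeal and outflow tissue in mice, rose 2.12-fold: it was at 17.1 ± 4.41 CPM in knockdown and 8.05 ± 0.907 CPM in control libraries (adjusted p = 8.5e-05). It was 1 of 2 tested among 13 other NKX genes, and the other did not pass (median 0.50), but was lower without knockdown replicates 1 and 2 together. Of 4 tested Iroquois genes other than IRX4, IRX2, its neighbour in the same cluster, rose (0.73 ± 0.191) and IRX1 fell (-0.67 ± 0.128), with a median of 0.21, and 2 rose with upper-quartile scaling, without knockdown replicate 2 or without replicates 1 and 2 together.

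Genes that TBX5, TBX20 or NKX2-5 are known to bind or regulate were mostly lower: 11 of 17 fell and 1 rose (median of log2 fold changes -0.72). Of all tested genes 39.6% were lower and 40.1% higher, and whether the falls in this list follow from these factors was not tested. The calcium release channel gene RYR2 was at 135 ± 61.8 CPM in knockdown and 1048 ± 43.2 CPM in control libraries (SD, n = 5, log2 fold change -2.96 ± 0.260). CITED1, a coactivator of the trabecular and embryonic myocardium, rose by 2.22 ± 0.325 to 1.35 ± 0.486 CPM in knockdown, against 0.285 ± 0.101 CPM in control libraries. The classic T-box targets NPPA and GJA5, chosen after their values were seen, did not pass (-0.50 ± 0.255, adjusted p = 0.091, and -0.17 ± 0.144, adjusted p = 0.30). Of 10 ventricular identity genes 8 fell and none rose, with a median of -1.45, among them CORIN, the protease that activates natriuretic peptides (-1.56), and PRDM16, a regulator of the compact wall (-2.41). The 12 cardiomyocyte markers, which share MYH7 with this list and MYH6, MYL7 and MYL4 with the atrial list, had a median of -1.56. Of these markers 11 were lower, and the 1 that did not pass was MYH6, MYL7 or MYL4. A fall was thus also seen in markers outside the ventricular list. Atrial identity genes split, 3 of 10 rising and 4 falling (median -0.48): NR2F2, the atrial nuclear receptor, rose by 1.52 ± 0.181, while MEIS2 (-1.28) and the potassium channel gene KCNJ3 (-1.27) fell.

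Of 13 sinoatrial and conduction genes 9 fell and 1 rose (median -0.97), against 39.6% lower and 40.1% higher among all tested genes. CACNA1D, the calcium channel of pacemaker cells, fell by 3.47 and the transcription factor gene ETV1 by 1.70 on the log2 scale, and CNTN2, a Purkinje cell marker, rose by 3.06 to 1.35 CPM in knockdown, against 0.159 CPM in control libraries. Of 15 tested second heart field and progenitor genes 4 rose and 7 fell (median -0.17). The nodal cofactor gene FOXH1 rose to 6.503 ± 1.85 CPM in knockdown, against 0.230 ± 0.0834 CPM in control libraries, and HOXB1 rose by 1.28, while EYA1 (-1.90) and the receptor gene KDR (-1.65) fell. With upper-quartile scaling the median of this list was 0.02. Of the genes named in these lists CACNA1D, RYR2, PRDM16 and EYA1 span 369.5 to 792 kb, and the part of gene span in the lists was not tested.

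**Figure D5:**
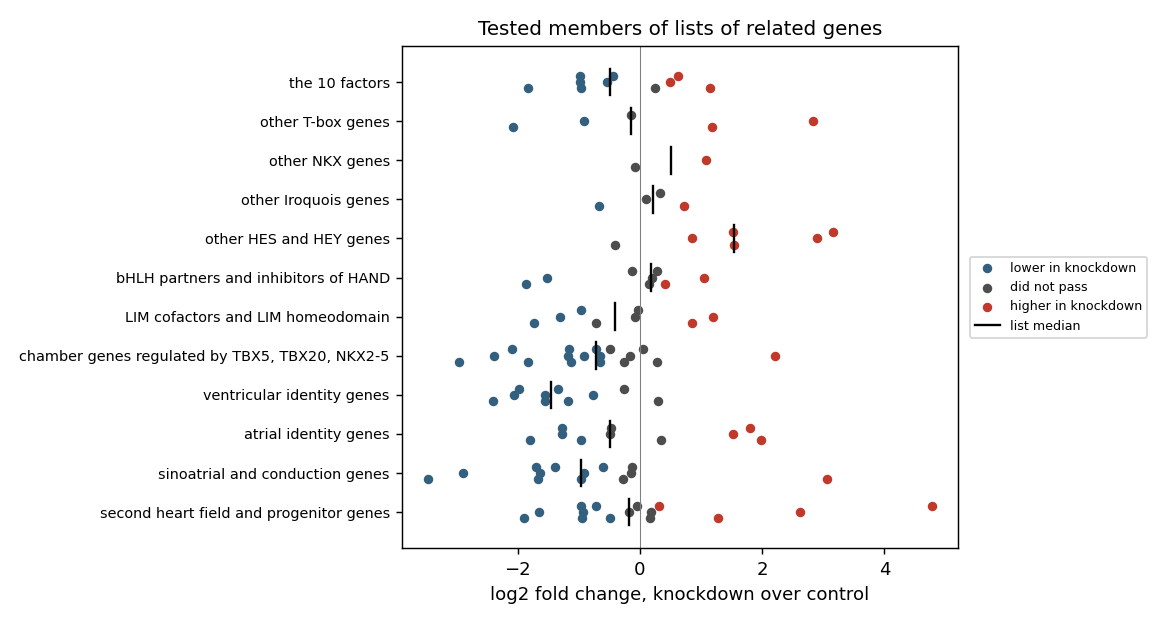
Log2 fold change of each tested gene in the lists of related genes, coloured by whether it was lower (blue), did not pass (grey) or was higher (red) in the knockdown, with a black line at each list's median. The HES and HEY relatives lie mostly to the right with a median of 1.53, and the ventricular identity genes to the left with a median of -1.45.

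Markers of other cell types moved as follows. Smooth muscle markers fell in 6 of 6, with a summed level of 556 to 1014 CPM in knockdown and 1542 to 2808 CPM in control libraries, ACTA2 (-2.15) and MYOCD (-2.71) having the smallest p. Their median log2 fold change was -1.55, beside -1.56 for the cardiomyocyte markers, and 39.6% of all tested genes were lower. These bulk libraries do not show which cells carried the smooth muscle markers. Of 10 fibroblast and stromal markers 2 rose (THY1 by 2.73, COL1A2 by 0.65) and 5 fell, FN1 (-1.08) and COL3A1 (-0.83) among them, at 1433 to 1737 CPM in knockdown and 2241 to 2435 CPM in control libraries. Endothelial markers summed to 9.17 to 18.2 CPM in knockdown and 30.7 to 52.1 CPM in control libraries, with 3 of 5 tested lower (KDR and TEK, -1.06) and PECAM1 and CDH5 under 1 CPM in both groups. Epicardial markers summed to 2.57 to 4.34 CPM in knockdown and 5.48 to 6.95 CPM in control libraries, with WT1 and TCF21 under 1 CPM and 3 of 3 tested lower (TBX18 and BNC1, -0.65), of which 1 passed without knockdown replicate 3, 4 or 5, with upper-quartile scaling or with library totals. Pluripotency markers summed to 8.495 to 10.9 CPM in knockdown and 7.87 to 10.5 CPM in control libraries, 3 of 5 tested rising (LIN28A by 3.27, DPPA4 by 2.93) and 1 falling (DNMT3B, -0.97), with PRDM14 at 0 counts and POU5F1, NANOG and SOX2 under 1 CPM. Of 4 tested endoderm markers APOA1 (1.3) and CXCR4 (1.66) rose and GATA6 (-1.26) fell, at 54.6 to 71.1 CPM in knockdown and 91.6 to 115 CPM in control libraries, and GATA6 is also a cardiac factor. Of 5 tested neural markers TUBB3 rose (1.16) and SOX3 (-0.94) and DCX (-0.58) fell, at 695 to 910 CPM in knockdown and 582 to 1198 CPM in control libraries, most of it NES at 692 ± 88.9 CPM in knockdown and 851 ± 253 CPM in control libraries. The part of these cell types in the values of the factors was not tested.

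The coding genes nearest in pattern to each factor were found by the root mean square difference of centred log2 CPM over the 10 libraries, among 14776 other coding genes. HAND2 was nearest to TASOR2 and TMEM62 (differences of 0.0475 and 0.0533), HEY2 to PARM1 and IGSF3 (0.0532 and 0.0630), IRX4 to RNF145 and CERCAM (0.0536 and 0.0590) and TBX20 to RBM23 and FIGN (0.0625 and 0.0759). TBX3 was nearest to MAGEH1 and CDIPT (0.0768 and 0.0804), TBX5 to STIM2 and ZNF395 (0.0875 and 0.0927), ISL1 to ATXN7L2 and KXD1 (0.0882 and 0.0898), and TBX2 to LRATD1 and ZNF703 (0.101 and 0.108). HAND1 was nearest to the thymidine kinase gene TK1 (0.0603) and RNASEH2A (0.0869). NKX2-5 had the largest distance to its nearest gene of the 10 factors, TNNI1, the slow skeletal troponin I of the fetal heart (0.113), followed by HTRA1 (0.128). Among the factors themselves TBX20 and HAND2 were closest, at 0.157. Centring takes out the level of each gene. The contrast of the groups enters this measure, so it shows likeness of pattern over these libraries only.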

How the data were processed

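Total RNA of 10 libraries was sequenced, 5 knockdown and 5 control, grouped by their titles. The authors deposited unnormalised counts per Ensembl gene, made with Trim Galore 0.65, STAR 2.7.0 and HTSeq, per the submitters' processing notes, on GRCh38 with GENCODE release 38, per the design text. Of its 78932 identifiers 61481 matched GENCODE release 44, the source of names, spans and exons here; 17397 of the 17451 others are numbered above the last identifier of release 44, so the counting annotation may be later than release 38. The unmatched held 0.250% to 0.408% of a library's counts and stayed in the totals. The libraries were stranded and depleted of ribosomal RNA, per the labels' protocols; the strand setting of HTSeq is not given in the sources used here.

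Counts were scaled by TMM and tested with edgeR 4.0.16 (R 4.3.3; filterByExpr, robust quasi-likelihood F test), with p-values adjusted by Benjamini-Hochberg over the 21033 genes and a threshold of 0.05; every adjusted p comes from this test unless another is named. The SE was taken as the size of the log2 fold change over the root of F. Log2 CPM used a prior count of 2. Alternatives used limma 3.58.1 (voom) and DESeq2 1.42.0. In data simulated for knockdown against control over 20641 genes, 67 genes were changed 1.5-fold, 67 were changed 2-fold and 66 were changed 4-fold. Of these 35.8%, 85.1% and 97.0% were called, in that order, with 2 false calls among 147. In the measured libraries 79.7% of all tested genes passed, a far larger share than was changed in the simulation. The simulation therefore does not give the error rate of the calls described here. Every pair of libraries differed beyond sampling noise, with a chi-square of at least 4.13 for each degree of freedom. Figures were drawn with matplotlib 3.10.9.

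The 10 factors, the lists and the ratios were chosen with earlier results of these data known. Named were all factors, tested genes within 100 kb of them, up to 2 rising and 2 falling genes per list with the smallest p, and the 2 coding genes nearest in pattern to each factor. HEY1, NPPA, GJA5 and NES were added after their values were seen. A few genes chosen this way were left out of the text.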

Additional observations from a re-analysis of the deposited data

Results flagged for a closer look

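Of 92 groups of 5 libraries checked (the factors, the 6 ratios and the 30 neighbours, in each group), 6 held a library whose gap to the next was large against the range of its group, where chance gives about 5% of groups. HEY2 was at 26.9 CPM in knockdown replicate 2, against 14.9 to 18.3 CPM in the other knockdown libraries, the one factor among the 6. In the same library HAND2-AS1 was at 97.4 CPM, against 68.2 to 76.1 CPM in the others, GALNT10 at 24.4 CPM, against 14.1 to 16.3, and BCAS3 at 4.35 CPM, against 2.42 to 2.93. These 4 genes were lower in the knockdown group, and in each replicate 2 was the library nearest to the controls. TBX2-AS1 was at 3.40 CPM in control replicate 5, against 2.21 to 2.47 CPM in the other controls. SAP30L-AS1 was at 2.59 CPM in control replicate 3, against 3.26 to 3.50 CPM in the others.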

How the results depend on the processing

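Over 21 other settings, HAND2, HEY2, IRX4, ISL1, TBX2, TBX20, TBX3 and TBX5 kept their direction and their side of the threshold, with log2 fold changes of -1.15 to -0.79, -2.03 to -1.65, -0.59 to -0.34, 0.43 to 0.69, 0.53 to 0.82, -1.31 to -0.79, 1.04 to 1.41 and -1.07 to -0.77, in that order. NKX2-5 ranged from -0.56 to -0.20 and HAND1 from 0.14 to 0.45, with the calls that changed given above. Leaving out 1 library gave 3 to 4 factors higher and 5 to 6 lower. Leaving out knockdown replicates 1 and 2 together and scaling by library totals alone were chosen after seeing the data; totals alone gave 3 higher and 6 lower. Near 0, IRX4-AS1 changed sign with upper-quartile scaling (0.13), without knockdown replicates 1 and 2 (0.093) and among the settings without 1 library (-0.16 to 0.0034). NDUFS6 changed sign with upper-quartile scaling (0.17), a mean of at least 1 CPM (0.025), without both replicates (0.034), on library totals (0.017) and without 1 library (-0.0863 to 0.040). The cause was not tested. Libraries sharing a replicate number did not deviate together (correlations of -0.17 to 0.22); with the replicate block 3 factors were higher and 6 lower, and 8214 genes higher and 8211 lower in all, against 8441 and 8332 without it. Of the list results, 33 counts or medians moved by more than the spread or 1.5 times. For ISL1, at 1 count per 0.0212 to 0.0315 CPM, depth limits precision.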

Other observations

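Partners of the factors split by gene. Of 8 tested dimer partners and inhibitors of the HAND factors 2 rose and 2 fell, with a median log2 fold change of 0.17. The E protein gene TCF3 was at 86.7 ± 5.73 CPM in knockdown and 65.3 ± 5.27 CPM in control libraries (SD, n = 5, log2 fold change 0.41 ± 0.0829), and the inhibitor gene ID1 was at 63.3 ± 19.7 CPM in knockdown and 30.7 ± 11.9 CPM in control libraries (1.04 ± 0.264). The other E protein genes, TCF12 (-1.87 ± 0.130) and TCF4 (-1.52 ± 0.153), fell, and they span 381 and 443 kb, against 43.3 kb for TCF3. With upper-quartile scaling 4 of this list were higher.

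Of 8 tested genes of LIM cofactors and LIM homeodomain relatives of ISL1, 2 rose and 3 fell (median -0.40, or -0.24 without control replicate 3). Among all tested genes 40.1% were higher and 39.6% lower. LDB1, the adaptor that joins LIM factors into complexes, was at 393 ± 50.5 CPM in knockdown and 171 ± 11.1 CPM in control libraries (log2 fold change 1.2 ± 0.108), and SSBP4 at 62.5 ± 3.40 CPM in knockdown and 34.5 ± 1.56 CPM in control libraries (0.86 ± 0.0726). SSBP3 (-1.73 ± 0.134) and SSBP2 (-1.30 ± 0.176), relatives of SSBP4 that bind the same adaptor, fell. Their spans are 188 and 339 kb, against 15.7 kb for SSBP4 and 13.9 kb for LDB1, and the part of span was not tested.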
